A study of Homo sapiens with 12 samples.

Results

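The 10 genes described here set the pace of the G1 phase of the cell cycle: the 3 D-type cyclins (CCND1, CCND2 and CCND3), the 2 kinases they activate (CDK4 and CDK6), 2 inhibitors of the INK4 family (CDKN2C and CDKN2D) and the 3 inhibitors of the CIP/KIP family (CDKN1A, CDKN1B and CDKN1C). They were taken by gene symbol, and all 10 were found among the 20003 genes measured. The expression of mRNA was measured in NB4 cells, a human acute promyelocytic leukemia line that carries the PML-RARα fusion gene, and in Kasumi-1 cells, a human AML-M2 line with the t(8;21) translocation and its AML1-ETO fusion gene. In each line, 3 control samples treated with DMSO were compared with 3 samples treated with 1 μM OGP46, a kaurene diterpenoid made from oridonin, for 48 h by the labels, giving 12 samples in all. One passage of the study gives a longer incubation. Each leukemia type was represented by 1 established line, so a difference between types is a difference between these lines. The labels do not say whether the samples of a group came from separate cultures. The study's legend calls its mRNA-seq figures representative of 3 independent experiments, without linking samples to them. The p-values measure only the spread between the samples of a group, which may be technical.

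D-type cyclins are made in response to growth signals, bind CDK4 or CDK6, and the active kinase phosphorylates the retinoblastoma protein RB1. Phosphorylated RB1 releases the E2F transcription factors, which switch on the genes of DNA replication. INK4 proteins bind CDK4 and CDK6 directly and keep the cyclin away, while CIP/KIP proteins bind complexes of cyclins and kinases, above all those of CDK2. Myeloid cells commonly leave the cycle in G1 as they mature, and the inhibitors take part in that exit.

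The values are FPKM, fragment numbers scaled to the length of a gene's exons and to all fragments mapped in the sample, so levels can be set beside each other between genes. Per sample, the sum over all genes ran from 248207 FPKM in an NB4 control to 310262 FPKM in a Kasumi-1 control. In NB4 the sum was 248207 to 256268 FPKM in controls and 263341 to 291523 with OGP46, without overlap. In Kasumi-1 the ranges overlapped, at 279879 to 310262 FPKM in controls and 279802 to 296455 with OGP46. The read depth behind the values is unknown, so precision rests on the spread of 3 samples. The 5 markers of t(8;21) leukemia (RUNX1T1, POU4F1, TRH, KIT and CD34) summed to between 263 and 299 FPKM in the Kasumi-1 controls and to between 0.563 and 3.60 in the NB4 controls. The primary granule gene MPO was abundant in both lines, while MS4A1 and HBA2 of the lymphoid and erythroid markers were listed at 0 in all 12 samples. Among those 9 markers CD3D reached 13.5 to 34.6 FPKM in NB4 cells.

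The members lie on 6 autosomes in the hg38 build (GENCODE release 29), each as a protein-coding gene. CDKN1A (chr6:36676460-36687339, plus strand) and CCND3 (chr6:41934933-42050357, minus strand) share a chromosome, as do CCND1 (chr11:69641087-69654474, plus strand) and CDKN1C (chr11:2883213-2885773, minus strand). CCND2 (chr12:4273772-4305350, plus strand), CDKN1B (chr12:12715058-12722371, plus strand) and CDK4 (chr12:57747727-57756013, minus strand) lie on chromosome 12. CDKN2C (chr1:50960745-50974633, plus strand), CDKN2D (chr19:10566462-10569059, minus strand) and CDK6 (chr7:92604921-92836594, minus strand) each lie on a chromosome of their own. No member shared a near-identical stretch of transcript with another. Some members share exon bases with a neighbour: CDK4 shares 43.2% of its 3168 exon bases with TSPAN31 on the opposite strand, CCND1 shares 10.3% with LTO1 on the opposite strand and CCND2 shares 13.8% with AC008012.1 on the same strand. The libraries were made with a stranded kit, but whether strand was used in counting is not stated, so reads of these shared exons are uncertain. TSPAN31 itself was listed at 3.62 to 7.24 FPKM, against 87.7 to 106 FPKM for CDK4.

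The promoter DNA of 4 members is shown because these genes carried the contrasts described next. CCND3, CDK6 and CDKN2D separated the lines most among the cyclins, the kinases and the inhibitors, and CDKN1A passed the test with OGP46. Each run is the 250 bases upstream of the RefSeq start listed first for the gene on the GRCh38.p14 build, read 5′ to 3′ on its strand. The windows of CCND3 and CDKN1A lie inside the gene bounds given above, and other starts were not searched. Capitals mark the GC box GGGCGG, a motif of the factor SP1, or its reverse complement, and in CDKN2D also the motif CCAAT.
CCND3, chr6:42048689-42048938, minus strand: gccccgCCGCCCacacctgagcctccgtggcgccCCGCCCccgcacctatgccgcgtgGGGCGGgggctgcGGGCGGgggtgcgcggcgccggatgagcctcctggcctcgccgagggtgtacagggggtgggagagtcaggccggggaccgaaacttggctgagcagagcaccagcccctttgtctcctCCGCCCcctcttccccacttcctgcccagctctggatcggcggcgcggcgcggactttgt
CDK6, chr7:92836574-92836823, minus strand: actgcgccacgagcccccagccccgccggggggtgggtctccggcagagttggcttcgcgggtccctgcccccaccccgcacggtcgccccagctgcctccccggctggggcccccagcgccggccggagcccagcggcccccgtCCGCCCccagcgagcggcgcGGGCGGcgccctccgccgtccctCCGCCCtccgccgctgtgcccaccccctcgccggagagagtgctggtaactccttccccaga
CDKN2D, chr19:10568980-10569229, minus strand: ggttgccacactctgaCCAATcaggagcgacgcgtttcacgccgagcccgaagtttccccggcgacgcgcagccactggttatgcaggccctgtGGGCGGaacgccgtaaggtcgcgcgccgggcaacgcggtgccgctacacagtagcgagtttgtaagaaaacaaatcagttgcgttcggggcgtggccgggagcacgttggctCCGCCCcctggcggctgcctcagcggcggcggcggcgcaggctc
CDKN1A, chr6:36678464-36678713, plus strand: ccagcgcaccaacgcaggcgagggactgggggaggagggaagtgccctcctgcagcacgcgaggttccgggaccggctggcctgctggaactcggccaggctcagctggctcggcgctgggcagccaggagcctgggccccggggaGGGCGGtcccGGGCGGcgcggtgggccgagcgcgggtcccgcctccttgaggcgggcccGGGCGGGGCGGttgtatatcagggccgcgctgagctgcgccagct
The RefSeq promoter table held 7 of the 10 members, and CDKN1C, CCND1 and CCND2 were not matched. All 4 windows were rich in G and C, with 74.4% for CCND3, 80.0% for CDK6, 67.6% for CDKN2D and 76.4% for CDKN1A, against a median of 58.0% over 27305 promoters. The GC box was found 5 times in CCND3, 4 times in CDKN1A, 3 times in CDK6 and 2 times in CDKN2D, and it is present in 42.3% of all promoters. In CDKN1A, 2 of the 4 matches overlap by 1 base. Of the other motifs searched on both strands, CCAAT (33.0% of promoters) was found 1 time in CDKN2D. The letters TATAAA (11.1%), CACGTG (6.49%), TGTGGT of RUNX factors (10.9%), CCGGAAG of ETS factors (8.82%), AGGTCA of retinoid receptors (12.1%), and TTTCCCGC (1.42%) and TTTGGCGC (0.553%) of E2F factors were not in these 4 windows. These matches describe the reference sequence only.

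Without OGP46, the 2 lines used different members of the same families. NB4 cells had CCND3 as their main D-type cyclin and little CDK6, whereas Kasumi-1 cells had little CCND3, much CDK6, and more of the inhibitors CDKN1B and CDKN2C. CCND2 and CDK4 were at similar levels in both. By limma on log2(FPKM + 0.1), with adjusted p below 0.05 and a log2 difference of at least 0.58, 5 members were higher in Kasumi-1 controls and 3 were lower. Over all genes tested, 29.7% were called higher and 22.7% lower, so calls were common between these lines whatever the gene. The groups did not overlap for the same 8 members, against 43.1% of all genes for higher and 34.6% for lower. These are whole-culture measurements, in which fewer cells of a kind and less RNA per cell cannot be told apart.

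CCND3 is the D-type cyclin of many blood cells. It was at 97.7, 86.7 and 96.2 FPKM in the NB4 controls and at 2.94, 4.15 and 2.96 FPKM in the Kasumi-1 controls. Every NB4 sample was far above every Kasumi-1 sample, and the log2 difference, Kasumi-1 minus NB4, was -4.78 (SE 0.13, adjusted p = 4.5e-08), among the lowest 0.943% of all genes. CCND1, the cyclin best known from epithelial and mantle cell tumours, was much lower in both lines, at 4.23, 3.09 and 5.93 FPKM in NB4 and 0.458, 0.324 and 0.592 FPKM in Kasumi-1. Its log2 difference was -3.00 (SE 0.25, adjusted p = 6.8e-06), and the groups were apart although the NB4 values spread widely.

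CCND2, the third D-type cyclin, stood at 17.1, 19.5 and 19.4 FPKM in the NB4 controls and 16.4, 18.1 and 19.1 FPKM in the Kasumi-1 controls. The ranges overlapped, and the log2 difference was -0.06 (SE 0.09, 95% confidence interval -0.26 to 0.14, adjusted p = 0.537), so a difference within that interval could not be seen. Summed over the 3 cyclins, the level was 117 ± 6.48 FPKM (SD, n = 3) in NB4 controls and 21.7 ± 1.64 in Kasumi-1 controls. CCND3 made up 80.2% ± 1.66 of that sum in NB4 and 15.4% ± 2.71 in Kasumi-1, and CCND2 made up 16.1% ± 1.76 and 82.5% ± 2.10. NB4 cells thus used mainly CCND3 mRNA, and Kasumi-1 cells mainly CCND2 mRNA, at nearly the same level of CCND2.

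The kinases showed the same kind of split. CDK4 was abundant in both lines, at 99.7, 104 and 89.8 FPKM in NB4 controls and 91.0, 106 and 95.6 FPKM in Kasumi-1 controls, with a log2 difference of -0.01 (SE 0.08, interval -0.20 to 0.19, adjusted p = 0.952). CDK6, which in blood progenitors also acts on transcription, was at 3.06, 3.49 and 3.43 FPKM in NB4 controls and 60.4, 51.3 and 51.4 FPKM in Kasumi-1 controls. The CDK6 groups were an order apart, with a log2 difference of 3.99 (SE 0.09, adjusted p = 4.5e-08), a 15.9-fold difference on the log2(FPKM + 0.1) scale. CDK6 supplied 3.30% ± 0.353 of the summed level of both kinases in NB4 controls and 35.9% ± 3.71 in Kasumi-1 controls. Summed without POU4F1, the markers of t(8;21) leukemia in the NB4 control 3 were at 1.04% of their mean level in Kasumi-1 controls. This was higher than the 0.0573% to 0.265% in the other 5 NB4 samples. At 1.04%, CDK6 of Kasumi-1 would amount to 0.564 FPKM, below the 3.43 FPKM measured in that sample. The source of the marker signal was not tested.

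Among the INK4 inhibitors, CDKN2C (p18) was at 14.1, 12.7 and 12.3 FPKM in NB4 controls and 42.6, 45.4 and 46.2 FPKM in Kasumi-1 controls, higher by 1.77 in log2 (SE 0.08, adjusted p = 1.3e-07). CDKN2D (p19) went the other way, with 12.5, 10.8 and 12.6 FPKM in NB4 and 0.826, 0.932 and 1.71 FPKM in Kasumi-1. Its log2 difference was -3.33 (SE 0.23, adjusted p = 1.7e-06). Of the sum of these 2 genes, which leaves out the other INK4 genes, CDKN2D was 2.49% ± 0.933 in Kasumi-1 and 47.9% ± 2.40 in NB4.

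CDKN1B (p27), the inhibitor that holds resting cells out of the cycle, was the main CIP/KIP gene of both lines. It was at 14.6, 11.2 and 14.4 FPKM in NB4 controls and 44.5, 49.4 and 57.7 FPKM in Kasumi-1 controls, higher by 1.91 in log2 (SE 0.13, adjusted p = 1.4e-06). CDKN1B made up 81.8% ± 4.97 of the CIP/KIP level in NB4 and 90.7% ± 2.79 in Kasumi-1. CDKN1A (p21), the inhibitor best known as a target of p53, was low in both, at 1.77, 1.69 and 1.15 FPKM in NB4 and 3.18, 2.89 and 1.89 FPKM in Kasumi-1, with a log2 difference of 0.74 (SE 0.22, adjusted p = 0.0137). CDKN1C (p57), a gene expressed from the maternal allele in most tissues, was at 1.64, 1.62 and 0.976 FPKM in NB4 and 2.36, 3.06 and 1.85 FPKM in Kasumi-1, with a log2 difference of 0.75 (SE 0.23, adjusted p = 0.0164). For CDKN1A and CDKN1C the lowest Kasumi-1 value was only just above the highest NB4 value. Their calls were lost without the NB4 control 3 (CDKN1A 0.56, adjusted p = 0.0505, and CDKN1C 0.52, adjusted p = 0.0519) and without the Kasumi-1 control 2 (0.67, adjusted p = 0.0552, and 0.57, adjusted p = 0.0701), and that of CDKN1A also without the Kasumi-1 control 1 (0.60, adjusted p = 0.061). TPM scaling, with log2 differences of 0.55 for CDKN1A and 0.56 for CDKN1C, and a pseudocount of 1, with 0.52 and 0.51, also ended both calls. The other 6 calls held under each alternative run.

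Set against each other within a sample, the 3 cyclins summed to 1.16 ± 0.144 times the level of the 2 kinases in NB4 controls and to 0.143 ± 0.0118 times in Kasumi-1 controls. The 5 inhibitors summed to 0.411 ± 0.0496 times the kinases in NB4 and to 0.670 ± 0.0661 times in Kasumi-1. NB4 cells were thus rich in cyclin mRNA per kinase mRNA and poorer in inhibitor mRNA, with no overlap between the lines in either ratio.

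**Figure D1:**
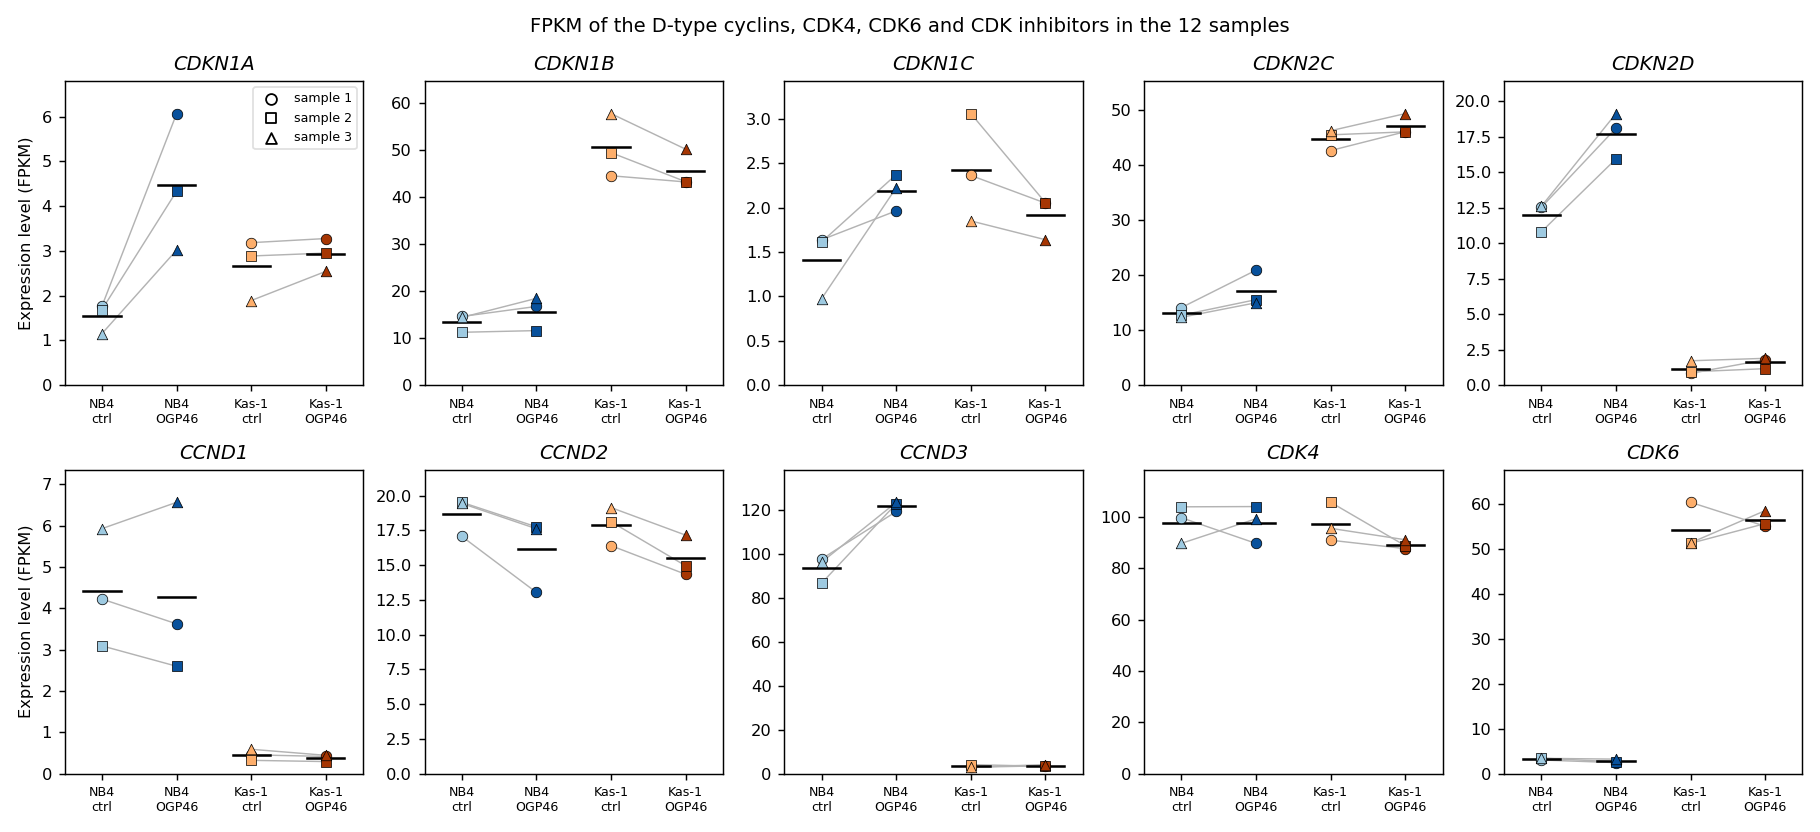
Expression level (FPKM, linear axes from 0) of each of the 10 members in the controls (ctrl) and OGP46 samples of NB4 and Kasumi-1 (Kas-1), with 1 point per sample, grey lines joining samples of the same number and a bar at the group mean. CCND3 and CDKN2D lie high in NB4 and low in Kasumi-1, CDK6 does the reverse, and CDK4 and CCND2 are at like levels in all groups.

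**Figure D2:**
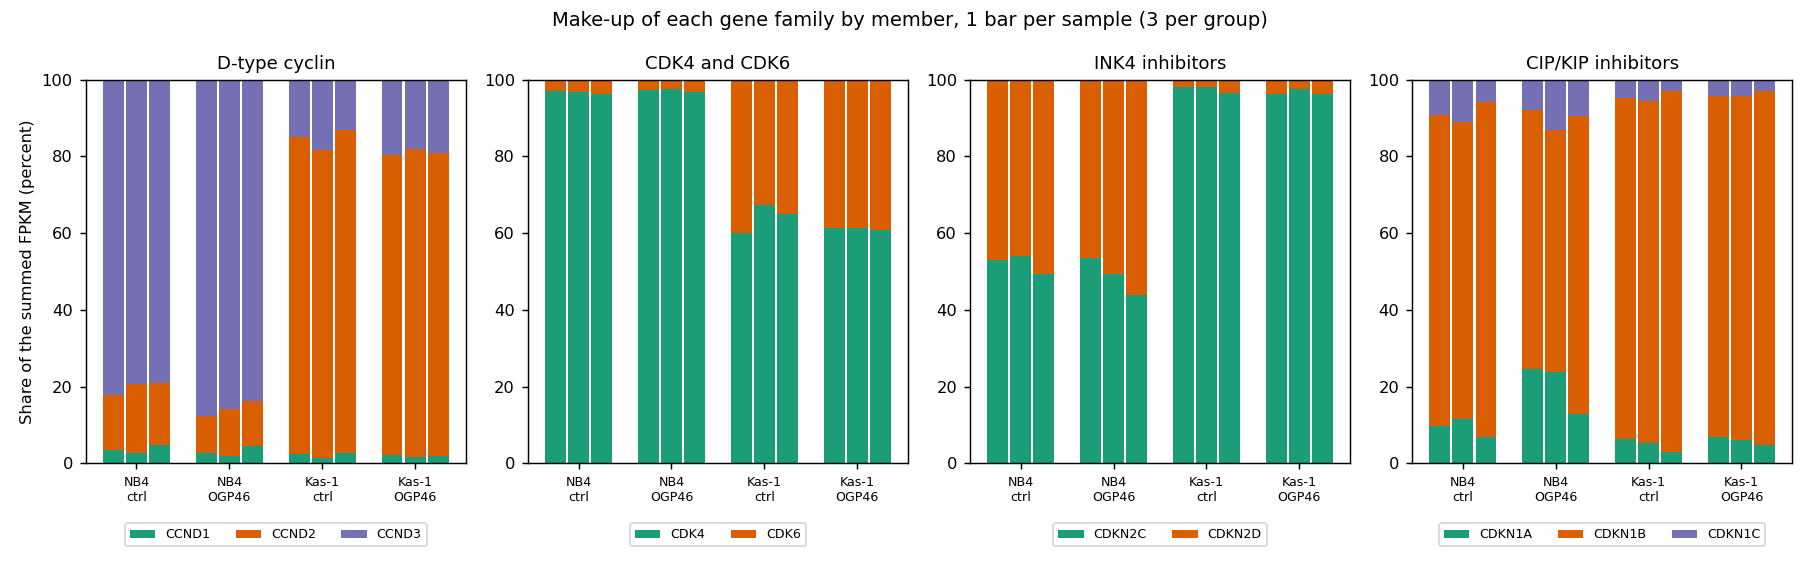
Share of each member in the summed FPKM of its family (percent), with 1 stacked bar per sample and 3 per group (Kas-1, Kasumi-1; ctrl, control). As group means, CCND3 holds 80.2% of the D-type cyclin level in NB4 controls and CCND2 holds 82.5% in Kasumi-1 controls, while CDKN1A goes from 9.48% to 20.3% of the CIP/KIP level in NB4 cells with OGP46.

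In NB4 cells, OGP46 was followed by a higher level of 1 member that passed the test, CDKN1A, while the D-type cyclins and the kinases did not fall past it. Called higher was 1 of 10 members, against 1.45% of all genes tested, and called lower was 0 of 10, against 0.111%. In limma's test at an unadjusted p below 0.05, 5 members were higher, CDKN1A, CDKN1C, CDKN2C, CDKN2D and CCND3, and 0 lower, against 27.5% and 1.61% of all genes. In the same 5 members, every OGP46 sample was above every control sample, but so it was for 32.7% of all genes tested. The median log2 change of all genes in NB4 was itself 0.18, which TPM scaling brought to 0.06. Relative to the 0.18, the values of CDK6 (-0.43), CCND2 (-0.40), CCND1 (-0.28) and CDK4 (-0.18) lay below 0. Those of CDKN1A (1.27), CDKN1C (0.45), CDKN2D (0.38), CDKN2C (0.20), CDKN1B (0.02) and the main cyclin CCND3 (0.20) lay above.

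CDKN1A was at 6.07, 4.34 and 3.02 FPKM in the NB4 samples with OGP46, against 1.15 to 1.77 FPKM in the controls. Its log2 fold change was 1.45 (SE 0.26, adjusted p = 0.0364), a 2.73-fold rise, or 1.27 above the median of all genes. The rise was present in 3 of 3 same-numbered pairs. The call did not survive every setting: the adjusted p was 0.0891 with no filter on low values, 0.122 after TPM scaling, 0.166 after median centring and 0.0792 without a mean-variance trend. It was 0.0606, 0.0797 and 0.154 without the control 1, 2 and 3, and 0.0879 and 0.0777 without the OGP46 sample 1 and 3. With the replicate number as a block it was 2.6e-05, and with the block and median centring 0.00356. The direction was the same under all of these.

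The other CIP/KIP members did not pass. CDKN1C was at 1.97, 2.38 and 2.23 FPKM with OGP46, above the 3 controls, with a log2 fold change of 0.63 (SE 0.20, adjusted p = 0.0991). The block gave an adjusted p of 0.0173 and a call, making 2 of 10 members called against 5.06% of all genes, and the block with median centring gave 0.0952 and no call, which left CDKN1A as 1 of 10 against 1.6% of all genes. CDKN1B, at 16.7, 11.6 and 18.4 FPKM, overlapped its controls, with a log2 fold change of 0.20 (SE 0.18, adjusted p = 0.469) that became -0.02 with median centring. As a result CDKN1A went from 9.48% ± 2.34 to 20.3% ± 6.57 of the CIP/KIP level, while CDKN1B remained the largest part.

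For both INK4 inhibitors, every OGP46 sample lay above every control, without a call. CDKN2D was at 18.1, 15.9 and 19.1 FPKM against 10.8 to 12.6 FPKM in the controls, with a log2 fold change of 0.56 (SE 0.10, adjusted p = 0.0385), just below the fold minimum of 0.58. It passed without the OGP46 sample 2, with 0.64 and an adjusted p of 0.0307. CDKN2C was at 20.9, 15.5 and 14.9 FPKM, with a log2 fold change of 0.38 (SE 0.13, adjusted p = 0.118).

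Of the cyclins, CCND3 was at 119, 123 and 123 FPKM with OGP46, above all 3 controls, with a log2 fold change of 0.38 (SE 0.07, adjusted p = 0.0432) that stayed below the fold minimum and was 0.20 above the median of all genes. CCND2 was at 13.0, 17.8 and 17.6 FPKM and overlapped the controls, with a log2 fold change of -0.22 (SE 0.13, adjusted p = 0.283). CCND1 was at 3.63, 2.60 and 6.57 FPKM, with a log2 fold change of -0.10 (SE 0.34, adjusted p = 0.846). The spread of CCND1 between samples was wide in both groups, and the sign of its change turned when single samples were left out. The summed cyclin level was 142 ± 5.91 FPKM with OGP46, against 117 ± 6.48 in the controls, and CCND3 made up 85.7% ± 2.06 of it.

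Neither kinase was called. CDK4 was at 89.7, 104 and 99.3 FPKM with OGP46, with a log2 fold change of -0.00 (SE 0.09, interval -0.20 to 0.20, adjusted p = 0.99). CDK6 was at 2.47, 2.63 and 3.25 FPKM, with a log2 fold change of -0.25 (SE 0.13, interval -0.56 to 0.05, adjusted p = 0.23), and was lower in 3 of 3 pairs. With block and median centring, CDK6 (-0.48, adjusted p = 0.0166), CCND2 (-0.44, adjusted p = 0.00602), CCND1 (-0.32, adjusted p = 0.0419) and CDK4 (-0.22, adjusted p = 0.0229) passed the adjusted p but not the fold minimum. The inhibitor CDKN2D did so in the other direction (0.34, adjusted p = 0.0132). Genes outside the members, such as CDK2 (-0.26, adjusted p = 0.0196) and MCM6 (-0.20, adjusted p = 0.0301), also did so. The share of all genes was not counted. The 5 inhibitors summed to 0.574 ± 0.113 times the 2 kinases with OGP46, and the lowest of these samples, at 0.466, was above the highest control, at 0.444.

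In Kasumi-1 cells, 0 of 10 members were called in either direction, against 0.0169% of all genes tested for higher and 0.0169% for lower, and with the replicate block the count was also 0, against 0.27% and 0.346%. In limma's test at an unadjusted p below 0.05, 1 member was lower, CCND2, against 3.65% of all genes, and 0 were higher, against 12%. The OGP46 and control samples overlapped in all 10 members, whereas they did not overlap in 17.4% of all genes for higher and 5.23% for lower. The median log2 change of all genes was 0.05.

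CCND2 was at 14.3, 15.0 and 17.2 FPKM in the Kasumi-1 samples with OGP46, with a log2 fold change of -0.21 (SE 0.09, interval -0.40 to -0.02, adjusted p = 0.28). It was lower in 3 of 3 same-numbered pairs in Kasumi-1 and in 3 of 3 in NB4, but the ranges of the groups overlapped in each line. CCND3 was at 3.62, 3.36 and 4.15 FPKM and CCND1 at 0.418, 0.294 and 0.445 FPKM, with log2 fold changes of 0.16 (SE 0.14) and -0.18 (SE 0.23). CDK4 was at 87.7, 88.8 and 91.1 FPKM and CDK6 at 55.1, 55.7 and 58.6 FPKM, with log2 fold changes of -0.12 (SE 0.07) and 0.06 (SE 0.07). Of these, only the interval of CCND2 left out 0, and none passed after adjustment over all genes. With block and median centring, CCND2 (-0.28, adjusted p = 0.00903) and CDK4 (-0.19, adjusted p = 0.0187) passed the adjusted p but not the fold minimum. The inhibitors CDKN1B (-0.21, adjusted p = 0.0264) and CDKN1C (-0.37, adjusted p = 0.0401) did the same. The share of all genes that did so was not counted.

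Among the inhibitors of Kasumi-1, CDKN1A was at 3.28, 2.95 and 2.54 FPKM with OGP46, against 1.89 to 3.18 FPKM in the controls, with a log2 fold change of 0.16 (SE 0.18, interval -0.24 to 0.56, adjusted p = 0.695). That value was -0.06 without the control 3. CDKN1C, at 2.05, 2.06 and 1.64 FPKM, had a log2 fold change of -0.30 (SE 0.17, adjusted p = 0.416). CDKN1B was at 43.2, 43.3 and 50.2 FPKM (log2 fold change -0.15, SE 0.10), CDKN2C at 46.0, 46.0 and 49.3 FPKM (0.07, SE 0.06) and CDKN2D at 1.78, 1.15 and 1.88 FPKM (0.48, SE 0.26, adjusted p = 0.397). CDKN2D had the largest point value, but from a level near 1 FPKM at which the samples spread widely.

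**Figure D3:**
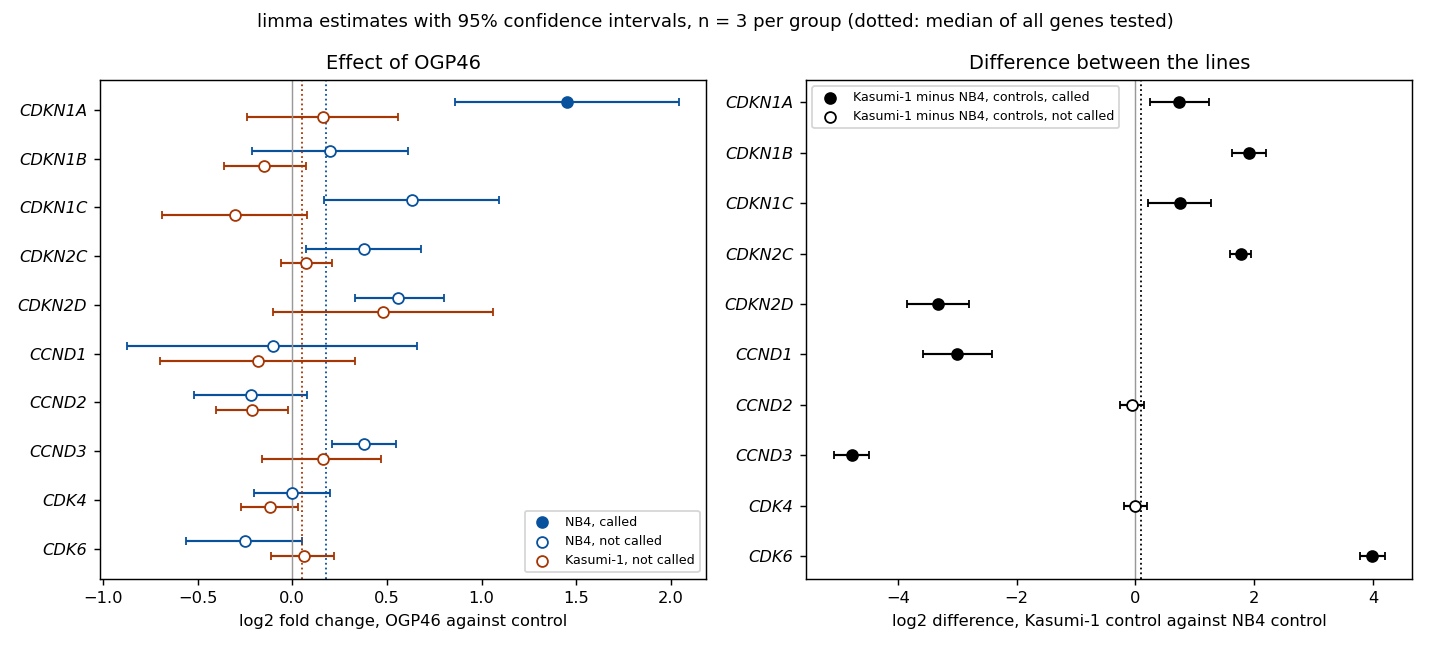
Log2 fold change of each member with OGP46 against control in NB4 (blue) and Kasumi-1 (brown) on the left, and log2 difference of the controls, Kasumi-1 minus NB4, on the right, with 95% confidence intervals, filled points for called members and dotted lines at the median of all genes tested. CDKN1A in NB4 is the 1 member called with OGP46, 8 members are called between the controls, and every Kasumi-1 interval on the left but that of CCND2 spans 0.

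The difference between the lines in the response was tested as the interaction of line and treatment in 1 fit of the 12 samples. No member passed, and neither did any of the 12309 genes tested, the lowest adjusted p over all of them being 0.0976, although 1225 were higher and 123 lower in NB4 at an unadjusted p below 0.05. In limma's test at an unadjusted p below 0.05, 2 members were higher in NB4 than in Kasumi-1, CDKN1A and CDKN1C, against 9.95% of all genes, and 1 was lower, CDK6, against 0.999%. The interaction, NB4 minus Kasumi-1, was 1.29 for CDKN1A (SE 0.35, interval 0.52 to 2.06, adjusted p = 0.225), 0.94 for CDKN1C (SE 0.29, adjusted p = 0.277) and -0.31 for CDK6 (SE 0.14, adjusted p = 0.454). With the replicate block, CDKN1A passed, with an adjusted p of 0.00958, making 1 of 10 members against 1.81% of all genes, and it passed with block and median centring too (1.14, adjusted p = 0.0315), against 0.788% of all genes. For CDKN1C the block gave 0.0691. For CCND2, which had like values in each line, the interaction was -0.01 with an interval of -0.38 to 0.35, so differences of that size could not be seen.

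Ordered by mean level over the 4 groups, CDKN1A was highest in NB4 with OGP46, then in Kasumi-1 with OGP46, Kasumi-1 control and NB4 control, and only the last of these steps was without overlap of samples. CDKN1B ran from Kasumi-1 control to Kasumi-1 with OGP46, NB4 with OGP46 and NB4 control, with a gap only between the lines. CCND3 and CDKN2D ran from NB4 with OGP46 to NB4 control and then the 2 Kasumi-1 groups, with no overlap at the first 2 steps. CDKN2C ran from the 2 Kasumi-1 groups to NB4 with OGP46 and NB4 control, with no overlap at the last 2 steps, and CCND1 and CDK6 were apart only between the lines. CDK4, CCND2 and CDKN1C overlapped at each step.

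The genes with which the members work were tested one by one. Of 19 genes of the G1/S machinery, such as CDK2, the E-type cyclins, RB1 and the E2F factors, 0 were called without or with the block, and their median log2 change of 0.15 was near the 0.18 of all genes. At an unadjusted p below 0.05 in limma's test, 7 of them were higher and 0 lower, beside 27.5% and 1.61% of all genes, a background that also holds for the counts of this kind in the other NB4 lists. CCNE2, the partner of CDK2 at the entry into S phase, had the largest positive value, from 4.08 ± 0.514 to 5.94 ± 1.35 FPKM (log2 0.52, SE 0.18, adjusted p = 0.112), and E2F5 the lowest, from 3.95 ± 0.614 to 3.35 ± 0.886 FPKM (-0.25, adjusted p = 0.405). RB1, the substrate of the cyclin D kinases, ranged from 10.8 to 16.6 FPKM without OGP46 and from 14.5 to 21.6 FPKM with it.

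Of 21 E2F target genes of DNA replication, 0 were called in NB4, and the median log2 change was 0.10. Their unadjusted count was 4 higher and 0 lower. TK1, a thymidine kinase of S phase, went from 22.7 ± 1.64 to 32.0 ± 1.94 FPKM (log2 0.49, SE 0.09, adjusted p = 0.0364, under the fold minimum), and MCM7, a subunit of the replicative helicase, from 148 ± 6.75 to 134 ± 10.7 FPKM (-0.15, adjusted p = 0.247). Of 18 G2/M genes, 0 were called, the median was 0.23, and 9 had an unadjusted p below 0.05, all higher, where the median of all genes was 0.18. CENPE, a kinesin of the kinetochore, went from 5.47 ± 0.733 to 7.80 ± 0.282 FPKM (0.51, SE 0.11, adjusted p = 0.0567). No gene of these lists fell past the test in NB4.

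Of 17 tested other targets of p53, listed because CDKN1A is one, 0 were called in NB4, against 8 that were higher and 0 lower at an unadjusted p below 0.05. With the block, 5 were called higher, against 5.06% of all genes: GADD45A (log2 0.66, adjusted p = 0.0011), BBC3 (0.85, adjusted p = 5.7e-04), SESN2 (1.02, adjusted p = 6.1e-04), BTG2 (1.58, adjusted p = 6.5e-04) and TNFRSF10B (0.76, adjusted p = 4.4e-04). With block and median centring 3 of these were called, BBC3, SESN2 and BTG2, against 1.6% of all genes. BTG2, an antiproliferative gene, went from 1.18 ± 0.689 to 4.70 ± 3.81 FPKM with widely spread samples, and AEN had the lowest value (-0.18, adjusted p = 0.3). MDM2, the p53 target that limits p53 itself, had a log2 fold change of 0.21 (SE 0.11, adjusted p = 0.236).

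Of 16 regulators of the members, 0 were called in NB4, while 4 were higher and 0 lower at an unadjusted p below 0.05. With the block, 2 were called higher, BCL6 and PIM1, against 5.06% of all genes. BCL6 (log2 1.01, adjusted p = 0.0146), a repressor of CCND2, stood at only 0.126 to 0.356 FPKM in the group means. PIM1 (0.71, adjusted p = 6.9e-04) is a kinase that phosphorylates CDKN1A and CDKN1B. Neither was called with block and median centring (BCL6 0.79, adjusted p = 0.0686, and PIM1 0.49, below the fold minimum). MYC, which represses CDKN1A and activates CCND2 and CDK4, went from 84.6 ± 1.97 to 71.9 ± 14.6 FPKM (-0.26, SE 0.14, adjusted p = 0.255). CEBPA, whose protein binds CDK2 and CDK4, had a log2 fold change of 0.02 (SE 0.10).

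In Kasumi-1, each of these 5 lists had 0 called genes, and the list medians lay between -0.06 and 0.09, near the 0.05 of all genes. At an unadjusted p below 0.05, the G1/S list had 3 higher and 0 lower, the regulators 1 and 1, the p53 targets 1 and 2, the replication genes 1 and 2 and the G2/M genes 4 and 0. Over all genes tested in Kasumi-1, 12% were higher and 3.65% lower, a background that also holds for the Kasumi-1 marker counts below. PIM1 went from 5.58 ± 0.547 to 3.06 ± 0.547 FPKM (log2 -0.86, SE 0.13, adjusted p = 0.0515), and with the block it was called lower (adjusted p = 0.0067). Other genes at the ends of the lists were CCNE2 (0.24), E2F4 (-0.16), BCL6 (0.26), RRM2B (0.41), TP53I3 (-0.28), MCM7 (-0.24), CENPE (0.25) and CDC20 (-0.14) in log2, with adjusted p from 0.0931 to 0.59.

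Between the controls of the lines, calls in the same lists went in both directions, as they did over all genes tested. Of those, 29.7% were called higher in Kasumi-1 and 22.7% lower. Of the replication genes 1 was higher and 8 were lower in Kasumi-1 of 21 tested, of the G2/M genes 1 and 4 of 18, of the G1/S genes 4 and 3 of 19, of the regulators 6 and 2 of 16 and of the p53 targets 6 and 6 of 19. CEBPA was lower in Kasumi-1, with a log2 difference of -3.23 (SE 0.13, adjusted p = 8.5e-08) and CCNE1 higher by 1.08 (SE 0.11, adjusted p = 1.9e-05). Most of the called replication genes were thus higher in NB4.

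Markers of maturation moved in NB4 in the same samples as CDKN1A. Of 10 tested monocyte and macrophage markers, 5 were called higher, among them CD68 (log2 0.62), ITGAM (1.08), ITGAX (1.11) and C5AR1 (1.93), with adjusted p from 0.0233 to 0.0432 for these 4, against 1.45% of all genes, and with the block 8 were called, against 5.06%. With block and median centring 6 were called, against 1.6%. TPM scaling or median centring without the block, and leaving out the control 1, the OGP46 sample 1 or the OGP46 sample 3, left 0 genes called higher in NB4, these included. Not called were CD14 (1.67), CD86 (1.44), CSF1R (0.60), FCGR1A (0.23) and LYZ (-0.01), and CD163 was listed at 0 in all NB4 samples. The summed level of the 12 markers lay between 288 and 414 FPKM in controls and between 297 and 409 FPKM with OGP46. Of the 5 primary granule genes, which mark promyelocytes, 0 were called, and 2 were lower at an unadjusted p below 0.05 in limma's test. The block called 4 lower, against 1.15% of all genes: ELANE (-2.17), PRTN3 (-1.36), CTSG (-1.45) and AZU1 (-0.62). Their summed level was 2605 to 3945 FPKM in controls and 1586 to 2812 FPKM after treatment. CD3D, a T cell gene, had a log2 change of 0.72 (adjusted p = 0.072, and 2.2e-04 with the block). In Kasumi-1, 0 of 7 tested monocyte markers (2 higher at an unadjusted p below 0.05) and 0 of 5 granule genes (3 lower) were called, and TRH of the t(8;21) markers was called lower (-0.84, SE 0.08, adjusted p = 0.0103). The part of these markers in the CDKN1A result was not tested.

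**Figure D4:**
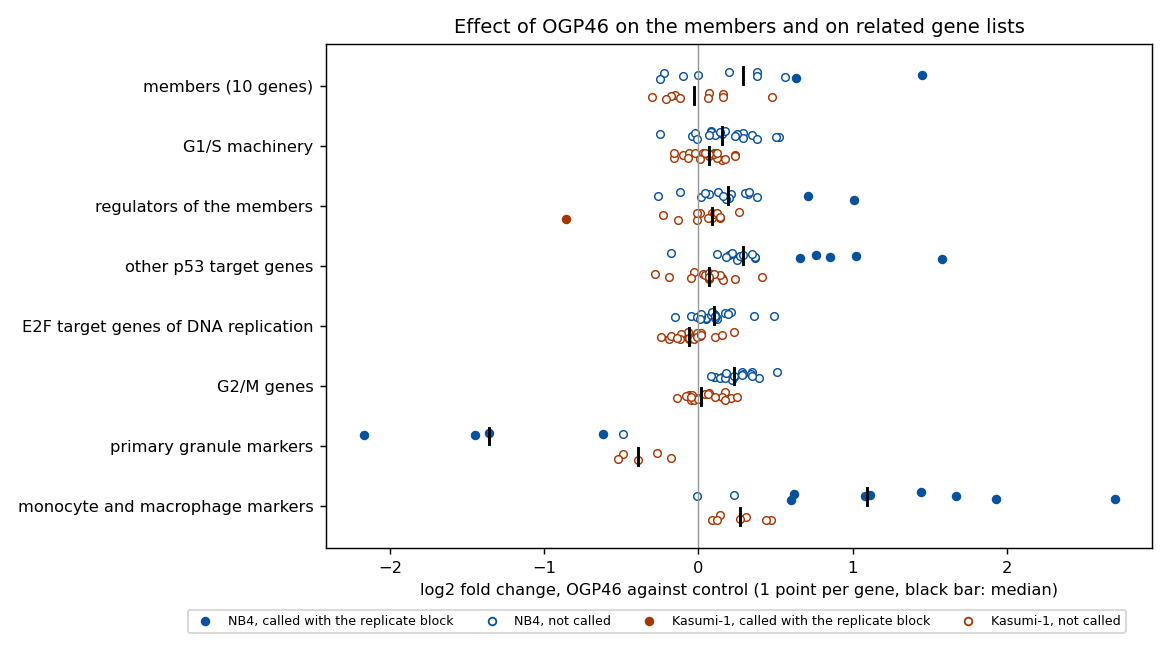
Log2 fold change with OGP46 of every tested gene of the members and of 7 lists, in NB4 (blue) and Kasumi-1 (brown), with filled points for genes called with the replicate block and a black bar at the median of each list. The medians of the cell cycle lists in NB4 lie between 0.10 and 0.23, while those of the granule and monocyte markers lie at -1.36 and 1.10.

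The genes whose profile over the 12 samples was nearest to that of CDKN1A were SLC16A13, NRP1 and DUSP5. Likeness was the root mean square difference of log2 values centred on each gene's mean, which was 0.28, 0.32 and 0.33 for these 3, against a median of 0.64 over 9933 genes. Each was lowest in NB4 controls and highest in NB4 with OGP46, as NRP1 with group means of 1.02, 2.48, 1.61 and 1.69 FPKM in NB4 control, NB4 with OGP46, Kasumi-1 control and Kasumi-1 with OGP46. The nearest to CCND2 were PES1 (0.07), SLC19A1 (0.08) and ECSIT (0.09), against a median of 0.39. These flat profiles changed little between any groups. Genes picked as nearest lie below the median by selection, so both medians serve only as a scale.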

How the data were processed

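The mRNA-seq data came from 12 samples, 3 per group, grouped as labelled. The authors deposited 1 FPKM value per gene symbol and sample, made from poly(A) mRNA with a stranded kit. The submitters' processing notes name Trimmomatic, HISAT2, Cufflinks, HTSeq and the hg38 build, without versions, and the annotation and the use of strand in counting are not given in the sources used here. Of the values, 632 lie above 0 and below 1e-04. How fragments were assigned to genes is not stated, and the depth is unknown. Symbols turned into dates (27) were left out.

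log2(FPKM + 0.1) was tested with limma 3.58.1 in R 4.3.3 (empirical Bayes with a trend) on genes whose mean over the samples fitted reached 0.1 FPKM, with Benjamini-Hochberg adjustment over all genes tested. Calls needed an adjusted p below 0.05 and a log2 change of at least 0.58, the interaction only the former. Folds on this scale understate the change of low genes. Without the model, 3 samples against 3 cannot give a two-sided exact permutation p under 0.10. The test was checked on simulated data.

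Members and lists were chosen with earlier results of these data known. Named were all members and markers, the called or most changed genes of each list, and the 3 nearest profiles of CDKN1A and CCND2. The results of 3 genes that this rule selects are not reported here. RB1, MDM2, CEBPA and CCNE1 were named after their values were seen. Control and OGP46 samples of the same number deviated in common over all genes tested (r = 0.35, 0.62 and 0.20 in NB4, and 0.22, 0.16 and 0.40 in Kasumi-1). The replicate block takes them as pairs, but the labels do not say what samples of the same number shared. Blocked values are printed where they change a call or move a count. Alternatives were other pseudocounts, filters and scalings, the replicate block, no trend, a joint fit and leaving out each sample.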

Additional observations from a re-analysis of the deposited data

Results flagged for a closer look

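With the replicate block, the test of the difference in response between the lines, NB4 minus Kasumi-1, called 223 genes higher and 14 lower, and without it none. For CDKN1A the difference in log2 fold change was 1.29 (limma adjusted p = 0.225 without the block and 0.00958 with it), with every pair higher in each line. For PIM1, a kinase of the regulator list, it was 1.57 (adjusted p = 0.24 and 0.00387). Among the p53 targets and markers, GADD45A (0.69), SESN2 (0.95), TNFRSF10B (0.72), CD14 (1.77), ITGAM (0.94), C5AR1 (1.79), PRTN3 (-0.85) and CTSG (-1.18) also passed with the block. Of these, CD14 and ITGAM did not reach the mean of 0.1 FPKM needed for the Kasumi-1 fit. They entered this test by their level in NB4, so their values say nothing of a response in Kasumi-1.

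CDKN1B and CDKN1C were picked out because every same-numbered pair was higher with OGP46 in NB4 and lower in Kasumi-1. The differences were 0.35 for CDKN1B (adjusted p = 0.58, and 0.124 with the block) and 0.94 for CDKN1C (adjusted p = 0.277, and 0.0691 with the block), and neither passed the threshold. The causes were not tested.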

How the results depend on the processing

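Of the 8 member calls between the controls 6 held under each alternative, while the counts of genes called with OGP46 varied widely, and the cause was not tested. In NB4, where 170 genes were called higher and 13 lower, the counts were 111 and 6 with a pseudocount of 1, 4 and 0 with no filter, 0 and 0 with TPM scaling or median centring, 3 and 1 without a trend, 393 and 87 in the fit of all 12 samples and 595 and 135 with the replicate block. A minimum mean of 1 FPKM left 7 lower, and the block with median centring gave 188 higher and 203 lower. Members called higher were 0 with no filter, TPM scaling, median centring or no trend, and 2 with the replicate block. In Kasumi-1, with 2 called higher and 2 lower, the counts were 13 and 11 at a minimum of 1 FPKM, 13 and 5 with TPM scaling, 4 and 14 with median centring, 32 and 41 with the replicate block, 26 and 67 with block and centring, and 0 and 0 with no filter, no trend or the fit of all 12 samples; a pseudocount of 1 gave 0 higher. For the difference between the lines, a pseudocount of 1 gave 14 genes higher, the replicate block 223 and 14 with 1 member, and block with centring 97 and 47 with 1 member. Between the controls, 3 members in place of 5 were higher with a pseudocount of 1 or TPM scaling. Numbers do not pair the controls of the lines, where the block gave 3674 higher and 2792 lower with the same 5 and 3 counts of members.

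Leaving out 1 sample gave 0 to 368 genes higher, 0 to 28 lower and 0 to 2 members higher in NB4, 0 to 8 higher and 0 to 7 lower in Kasumi-1, 0 to 1 and 0 to 1 for the difference, and 3485 to 3776 higher, 2638 to 2912 lower and 3 to 5 members higher between the controls.

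Signs turned only where no call stood: CDKN1B in NB4 (-0.02) and CDK6 in Kasumi-1 (-0.01) with median centring, with or without the block, and in the difference between lines CCND1 (-0.01 with a pseudocount of 1, -0.06 with TPM scaling, -0.07 with centring), CDKN2D (-0.06 and -0.07) and CDK4 (-0.02 and -0.03). Without 1 sample, CCND1 in NB4 ran from -0.46 to 0.19, CDKN1A in Kasumi-1 from -0.06 to 0.30, CDK4 between the controls from -0.07 to 0.04, and in the difference CCND1 from -0.28 to 0.38, CCND2 from -0.09 to 0.13 and CDKN2D from -0.21 to 0.27. CCND1 had no value in Kasumi-1 at a minimum of 1 FPKM. Depth is unknown and limits what can be said of members near 1 FPKM.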
